A study of Mus musculus with 66 samples.

Results

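Tbr1 is a T-box transcription factor of early-born excitatory neurons of the developing cortex. The 7 genes described here, Reln, Auts2, Bcl11a, Cask, Ntng1, Cdh8 and Wnt7b, are named in the literature as targets or partners of Tbr1 in cortex. They were taken by symbol, with no measured value in the rule, and make up 7 of the 30084 gene symbols in the count table. All 7 passed the filter on low counts, with at least 86 reads in every library.

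The cells were neurons cultured from wildtype (WT) mouse embryos at stage e16.5, with males and females kept apart. Lentivirus delivered a short hairpin RNA (shRNA), an RNA that lowers the mRNA it matches, against Tbr1, Med13l, Setd5, Kmt2c, Ash1l, Dnmt3a, Chd8, Kdm6b or Mbd5. Control cultures received a nontargeting shRNA, or no virus, and every culture was lysed on day 10. With 11 treatments, 2 sexes and 3 libraries each, there were 66 polyadenylated RNA libraries in 22 groups. The shRNA lowers its target in the whole culture rather than in 1 cell type and leaves part of the mRNA in place. The labels describe wells infected in triplicate and do not say whether replicates came from separate litters, so p-values measure only the spread between these libraries. Neuronal markers were present in all groups: the summed level of 5 pan-neuronal genes was 5050 to 5111 counts per 1000000 counts of the library (CPM) in the male nontargeting libraries and 4756 to 5415 CPM in the female ones.

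Library totals ran from 13634872 to 66074822 counts with a median of 31494162. In 2 male libraries the level of Setd5 went against the label. Setd5 stood at 141 CPM in male replicate 1 of the Setd5 shRNA group, within the 133 to 149 CPM of the male nontargeting libraries. It stood at 44.9 CPM in male replicate 1 of the Kdm6b shRNA group, near the 42.9 and 42.7 CPM of the other Setd5 shRNA males. Kdm6b went against the labels less fully. It stood at 39.9 CPM in that Kdm6b shRNA library, below the 55.1 to 64.9 CPM of the male nontargeting libraries and above the 17.2 CPM of each other Kdm6b shRNA male. In male replicate 1 of the Setd5 shRNA group it stood at 23.1 CPM, beside 47.2 and 62.6 CPM in the other Setd5 shRNA males. Setd5 shRNA females, with Setd5 at 31.9, 61.5 and 32.9 CPM, had Kdm6b at 24.4, 58.9 and 34.2 CPM. A low Kdm6b level was thus not particular to that male library. Cask and the averaged Ntng1 value after Setd5 shRNA, and the count of averaged calls, are given with and without both libraries. Other results that rest on either library include both unless stated, among them ranks, similar genes and deviations by replicate number. Neither library enters the Tbr1 shRNA groups or the control groups.

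Tbr1 binds DNA through its T-box and both activates and represses genes in postmitotic neurons that will form the deep cortical layers. Reln is the best known of its reported targets: it encodes reelin, a large secreted glycoprotein that binds the lipoprotein receptors Vldlr and Apoer2 (gene Lrp8) on migrating neurons and acts through the adaptor Dab1. Cask, a membrane-associated guanylate kinase scaffold of synapses, is reported to enter the nucleus with Tbr1 and act as its coactivator. The other members are the nuclear regulators Auts2 and Bcl11a, the surface adhesion molecules Ntng1 and Cdh8, and the secreted signal Wnt7b.

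Reln is a long gene on the minus strand of chr5:21884454-22344702 (GRCm38, GENCODE M21), and its promoter is shown because Reln is the member with the largest decrease in the whole set of knockdowns. The RefSeq promoter table (GRCm38.p6) held 4 of the 7 members, Reln, Bcl11a, Ntng1 and Cdh8. The 250 bases before the Reln start, chr5:22344706-22344955, minus strand, 5′ to 3′, read as follows.
Reln, 250 bases before the start: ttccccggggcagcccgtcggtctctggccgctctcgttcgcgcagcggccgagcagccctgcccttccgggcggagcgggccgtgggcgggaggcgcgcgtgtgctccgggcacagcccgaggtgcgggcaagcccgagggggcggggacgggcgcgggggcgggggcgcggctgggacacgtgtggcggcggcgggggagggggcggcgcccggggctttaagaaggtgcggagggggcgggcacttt
This window, taken with the 50 bases after the start, was 80.7% G and C, against a median of 52.7% over all promoters. The letters GGTGTGA, a T-box half-site, or TCACACC on the other strand, occur in 3.98% of the 32851 promoter windows of 300 bases, counted on both strands. No match lay in the windows of Reln, Ntng1, Cdh8 or Tbr1 itself. Bcl11a had 1 match, on the strand of the gene and beginning 22 bases after its start, at chr11:24080706-24080732 with its flanks, shown here with the match in capitals.
Bcl11a, 27 bases around the match: ggcgcgcgacGGTGTGAagttacagcc
Matches and their absence describe only the letters of these windows. Binding was not measured.

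Tbr1 mRNA fell in all 6 libraries that received its shRNA. In males, Tbr1 (chr2:61802930-61814114) was at 51.8, 52.2 and 54.8 CPM in the nontargeting libraries and at 18.3, 15.3 and 23.4 CPM after Tbr1 shRNA. In females it was at 47.4, 70.2 and 48.0 CPM in the controls and at 15.4, 34.3 and 15.8 CPM after the shRNA. The groups did not overlap in either sex, and 35.9% of the control mean remained in males and 39.5% in females. On the log2 scale Tbr1 changed by -1.47 (SE 0.239, adjusted p = 0.000688, edgeR quasi-likelihood test) in males and by -1.34 (SE 0.238, adjusted p = 0.00683) in females. Averaged over the sexes the change was -1.41 (SE 0.169, edgeR adjusted p = 4.396e-07). Leaving out male shRNA replicate 2 ended the call in males (edgeR adjusted p = 0.0550). The female call did not hold with each sex fitted separately (-1.35, edgeR adjusted p = 0.305) or with only the libraries compared (-1.33, edgeR adjusted p = 0.9998). It was also lost on leaving out female shRNA replicate 1 (edgeR adjusted p = 0.244), female shRNA replicate 3 (0.194) or female nontargeting replicate 2 (0.110). In those 3 fits the log2 change lay between -1.15 and -1.13, and in every same-number pair Tbr1 was lower by at least 1.03.

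In the fit without a replicate block, none of the 7 reported targets passed the test after Tbr1 shRNA, in males, in females or averaged over the sexes. Among all 16145 genes tested, edgeR called 0.217% in males, 0.0619% in females and 1.33% in the average of both sexes (adjusted p under 0.05). At an unadjusted p under 0.05 there were 0 members in males, 1 in females and 2 in the average, beside 4.92%, 4.52% and 9.9% of all genes. DESeq2 also called 0 members in each. With the replicate number within each sex as a block, Auts2 passed in the average (edgeR adjusted p = 0.00319), among 6.57% of all genes. Without the block, Auts2, Bcl11a, Cask, Reln and Wnt7b lay below 0 in both sexes, and Cdh8 and Ntng1 lay above 0 in both. The median member was at -0.18 in males and -0.16 in females on the log2 scale, beside medians of -0.0016 and -0.0036 over all genes. The median absolute log2 change was 0.219 in males and 0.251 in females for the members, and 0.159 and 0.149 for all genes.

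**Figure D1:**
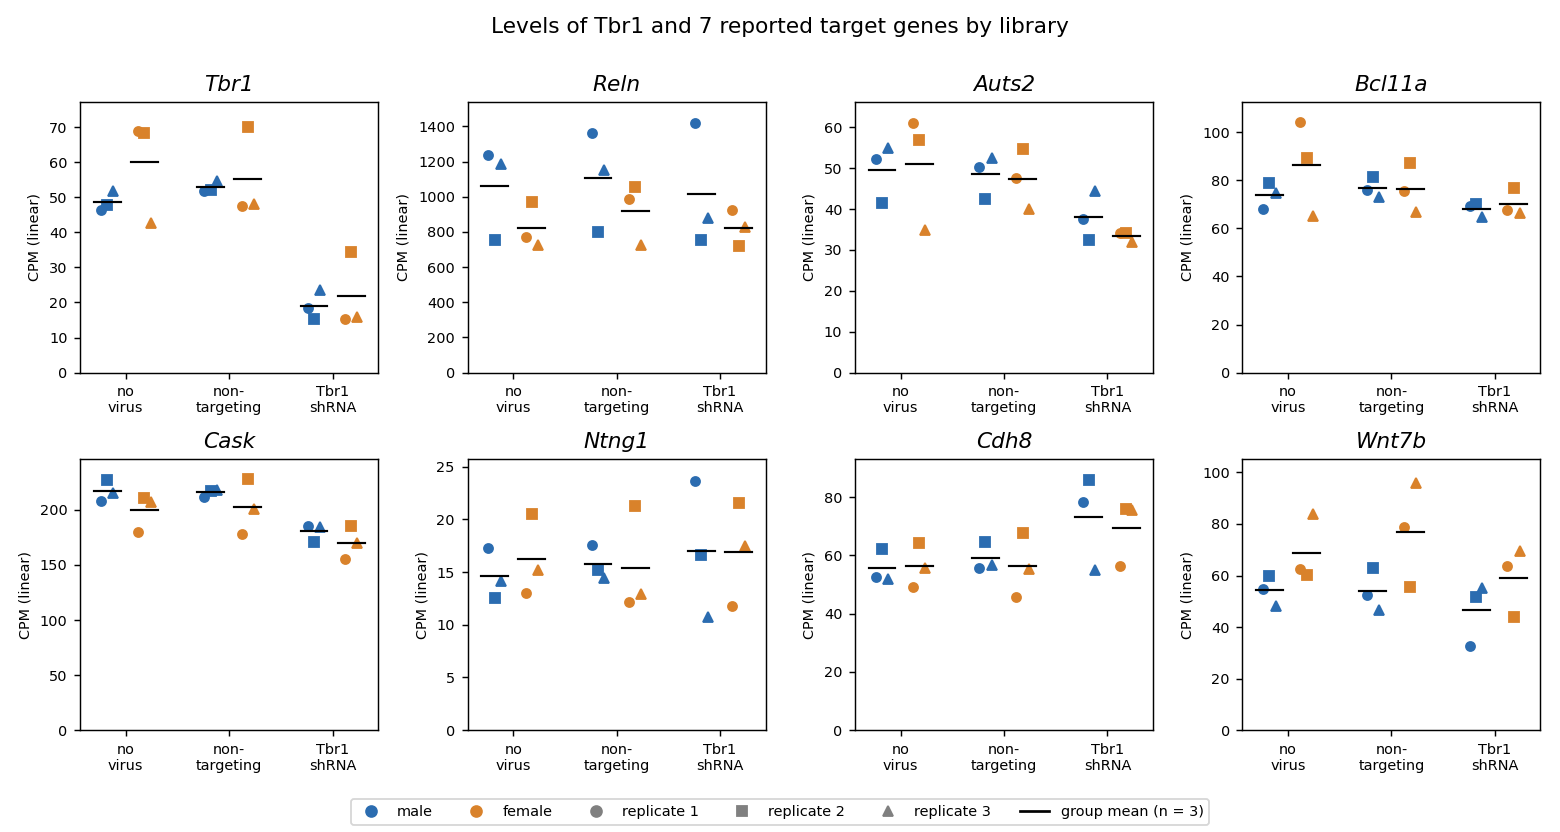
Levels of Tbr1 and the 7 reported targets in CPM (linear axes) in the no virus, nontargeting and Tbr1 shRNA libraries. Each point is 1 library, its shape the replicate number and its colour the sex; lines are group means of 3. Tbr1 is clearly separated between shRNA and both kinds of control, while the points of most targets overlap.

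The plot of levels by library shows the size of this contrast. The Tbr1 points after the shRNA lie between 15.3 and 34.3 CPM, below every control point, whereas points of the targets overlap in most panels.

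Auts2 (chr5:131437333-132543344, minus strand), a nuclear protein that joins a noncanonical Polycomb complex and is tied to transcriptional activation in neurons, had the largest decrease of the 7. In males, Auts2 was at 50.3, 42.5 and 52.6 CPM in the controls and at 37.5, 32.4 and 44.5 CPM after Tbr1 shRNA. In females, the controls had 47.5, 54.7 and 40.1 CPM and the Tbr1 shRNA libraries 34.2, 34.2 and 31.9 CPM. All 3 female shRNA libraries lay below all 3 female controls, and the males overlapped. The mean after the shRNA was 74.6% of control over both sexes, a log2 change of -0.43 (SE 0.175, 95% interval -0.78 to -0.07, edgeR adjusted p = 0.324). Auts2 was lower in the shRNA library of each of the 6 same-number pairs, by between 0.24 and 0.67 on the log2 scale. With the replicate number within each sex as a block, the change was -0.42 (SE 0.0972, edgeR adjusted p = 0.00319) and passed the test. That fit called 6.57% of all genes, and Auts2 was the only one of the 7 members that it called in the average. Within each sex it called 0 members, beside 1.75% of all genes in males and 0.898% in females.

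Bcl11a (chr11:24078056-24174123), a zinc finger repressor of cortical projection neurons, varied little among libraries of a group. In males, it was at 76.1, 81.2 and 73.3 CPM in the controls and at 69.5, 70.3 and 64.6 CPM after Tbr1 shRNA, with no overlap. In females, the controls had 75.7, 87.1 and 66.8 CPM and the shRNA libraries 67.5, 76.9 and 66.4 CPM. Every same-number pair was lower after the shRNA, with log2 differences from -0.21 to -0.0073. The log2 change was -0.15 (SE 0.0945, 95% interval -0.34 to 0.04, edgeR adjusted p = 0.698), and the interval runs from 79.05% to 102.9% of control.

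Cask (chrX:13517080-13851367, minus strand) was lower after Tbr1 shRNA in all 6 same-number pairs but did not pass the test. Male controls had 212, 217.5 and 218.5 CPM and male Tbr1 shRNA libraries 186, 171 and 185 CPM. Female controls had 178, 228 and 201 CPM and female shRNA libraries 156, 185 and 170 CPM. The male groups did not overlap and the female groups did. Cask stood at 83.8% of control over both sexes, a log2 change of -0.25 (SE 0.113, 95% interval -0.48 to -0.03, edgeR adjusted p = 0.396).

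Groups without overlap were few and read against the background. In males 2 of the 7 members, Bcl11a and Cask, had all shRNA libraries below all controls, as did 10.2% of all genes. In females 1 of the 7, Auts2, did so, as did 4.59% of all genes. No member was separated in this way over both sexes together, where 1.13% of all genes were.

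Reln itself was at 1364, 798 and 1153 CPM in the male controls and at 1419, 756 and 880 CPM in the male Tbr1 shRNA libraries. In females the controls had 986, 1054 and 725 CPM and the shRNA libraries 922, 722 and 827 CPM. The groups overlapped in both sexes, and 4 of 6 same-number pairs were lower. The log2 change was -0.14 (SE 0.210, 95% interval -0.56 to 0.28, edgeR adjusted p = 0.949), or 90.9% of control. Male replicate 1 was the highest and male replicate 2 the lowest of its group in the no virus, nontargeting and Tbr1 shRNA males alike.

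Wnt7b (chr15:85535437-85582473, minus strand), a ligand of Frizzled receptors, was at 52.5, 63.0 and 46.6 CPM in male controls and at 32.5, 51.6 and 55.3 CPM after Tbr1 shRNA. In females it was at 78.6, 55.6 and 96.0 CPM in controls and at 63.5, 43.8 and 69.4 CPM after the shRNA. It was lower in 5 of 6 same-number pairs, with overlap in both sexes. The log2 change was -0.30 (SE 0.198, 95% interval -0.70 to 0.10, edgeR adjusted p = 0.722).

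Of the surface molecules, Cdh8 (chr8:99024471-99416471, minus strand), a type II cadherin that mediates adhesion between like cells, had the highest log2 difference of the 7. Male controls had 55.8, 64.6 and 56.6 CPM and male Tbr1 shRNA libraries 78.2, 85.7 and 55.1 CPM. Female controls had 45.6, 67.7 and 55.4 CPM and female shRNA libraries 56.3, 76.1 and 75.5 CPM. The groups overlapped in both sexes, although 5 of 6 pairs were higher after the shRNA. The log2 difference was 0.30 (SE 0.155, 95% interval -0.01 to 0.61, edgeR adjusted p = 0.525).

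Ntng1 (chr3:109780040-110144011, minus strand), which encodes the membrane-anchored netrin-G1 that binds the synaptic ligand Lrrc4c, was the member with the widest interval. Male controls had 17.6, 15.2 and 14.5 CPM and male shRNA libraries 23.6, 16.6 and 10.8 CPM. Female controls had 12.1, 21.3 and 12.9 CPM and female shRNA libraries 11.8, 21.6 and 17.4 CPM. Both sexes overlapped. The log2 difference was 0.12 (SE 0.289, 95% interval -0.46 to 0.70, edgeR adjusted p = 0.974).

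**Figure D2:**
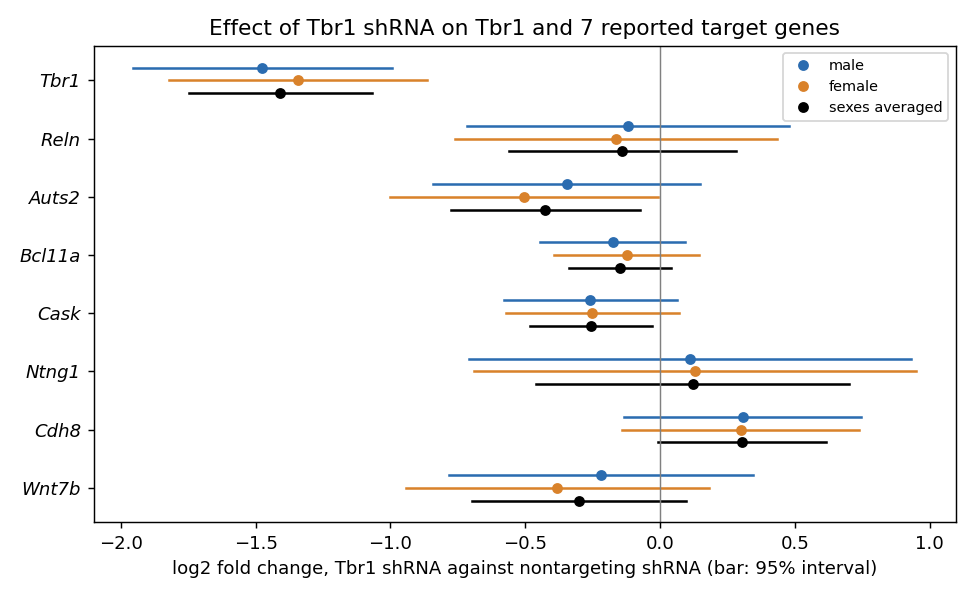
Log2 fold change of Tbr1 and the 7 reported targets after Tbr1 shRNA against nontargeting shRNA, in males, females and averaged over the sexes; bars are 95% intervals of the edgeR fit. Tbr1 lies near -1.4 and the targets between -0.50 and 0.31.

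The male and female estimates lie close together for each gene in the plot of fold changes. For no member did the effect of Tbr1 shRNA differ between the sexes by the interaction test, which called 0% of all genes (edgeR, 99 of them at an unadjusted p under 0.05). No member had an unadjusted p under 0.05 there, and DESeq2 called 0 members. The male effect minus the female effect ranged from -0.05 for Bcl11a to 0.16 for Wnt7b on the log2 scale. The intervals were wide: for Auts2 it ran from -0.54 to 0.86 and for Ntng1 from -1.18 to 1.14.

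Genes that act with the members were taken from lists of their pathways and partners. In the average of both sexes after Tbr1 shRNA, 0 of 10 reelin pathway genes, 0 of 11 Cask partners, 0 of 9 Auts2 Polycomb partners and 0 of 7 Bcl11a partners passed the edgeR test without a block. The counts were also 0 of 7 netrin-G ligands and related receptors, 0 of 10 other type II cadherins, 0 of 12 Wnt7 receptors and readouts and 0 of 8 further reported targets or partners. At an unadjusted p under 0.05 the counts were 1, 4, 0, 0, 2, 1, 1 and 0 in that order, beside 9.9% of all genes. The median log2 change was -0.09 for the reelin pathway, -0.15 for the Cask partners and -0.10 for the further targets, beside -0.0015 for all genes. Grin2b, an NMDA receptor subunit gene among those further targets, was at -0.25 (edgeR adjusted p = 0.867) and Fezf2, a regulator of deep-layer neurons, at 0.04.

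With the replicate block, partners of Cask and of reelin were among the genes that passed after Tbr1 shRNA in the average of both sexes. Among the Cask partners, Nrxn3, a presynaptic neurexin whose tail binds Cask, fell by 0.39 on the log2 scale (edgeR adjusted p = 0.00548) and the adaptor gene Apba1 by 0.35 (0.000632). Without the block they were at -0.39 and -0.35 (edgeR adjusted p = 0.194 and 0.456). Of the 10 reelin pathway genes 2 fell with the block, the adaptor gene Dab1 by 0.31 (edgeR adjusted p = 0.00558) and the kinase gene Fyn by 0.24 (0.00382). Without it they were at -0.30 and -0.24 (edgeR adjusted p = 0.530 and 0.0504). The receptor genes Lrp8 and Vldlr passed in neither fit, at -0.11 and 0.15 without the block. The netrin-G1 ligand gene Lrrc4c fell by 0.28 (edgeR adjusted p = 0.0289) and Lrrc4, the ligand gene of netrin-G2, by 0.30 (0.00803), 2 of 7 in that list. Cdh24 and Foxp2 were the single calls in the cadherin and further-target lists, and the Bcl11a, Auts2 and Wnt7 lists had 0. These shares stand beside the 6.57% of all genes called by that fit.

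Markers of cell types were read beside these results. In the average of both sexes, 0 of 8 deep-layer, 0 of 7 excitatory, 0 of 11 GABAergic and 0 of 7 Cajal-Retzius cell markers passed after Tbr1 shRNA (edgeR). At an unadjusted p under 0.05 there were 0, 2, 2 and 3, beside 9.9% of all genes. With the replicate block the deep-layer marker Foxp2, the excitatory marker Slc17a6, the GABAergic markers Gad2 and Lhx6 and the Cajal-Retzius marker Trp73 were among those that passed, all lower. These calls come from lists of 8, 7, 11 and 7 markers, in a fit that called 6.57% of all genes. The Cajal-Retzius sum, from cells that make much of the early reelin, was 165 to 180 CPM after Tbr1 shRNA and 187 to 200 CPM in control males, and 127 to 162 and 140 to 185 CPM in females. Lower sums were not particular to that list. The general neuron markers summed to 4670 to 4854 against 5050 to 5111 CPM in males and 4339 to 4703 against 4756 to 5415 CPM in females. The GABAergic sum was 1775 to 2045 against 2110 to 2315 CPM in males and 1629 to 2052 against 1849 to 2154 CPM in females. The oligodendrocyte lineage sum was not lower, with means of 40.3 against 36.3 CPM in males and 41.6 against 40.2 CPM in females. No marker of these neuronal lists was at 0 in either group, and their part in the member values was not tested. In bulk RNA, fewer cells of a type and less RNA per cell cannot be told apart. The single listed gene that passed without the block was Slc1a2, the main glutamate transporter of astrocytes, 1 of 8 astrocyte and radial glia markers. Slc1a2 fell from 253 ± 9.27 (SD, n = 3) to 98.9 ± 22.1 CPM in males, and from 270 ± 88 to 109 ± 35.2 CPM in females. The averaged log2 change was -1.33 (SE 0.175, edgeR adjusted p = 1.756e-06), near that of Tbr1 itself. The rest of the astrocyte and radial glia list did not fall with Slc1a2. The mean sum of all 8 markers was 430 against 481 CPM in males and 478 against 611.5 CPM in females. In both sexes that is a smaller fall than the fall of Slc1a2 alone. At an unadjusted p under 0.05 (edgeR, average of both sexes) there was 1 of the 8, Slc1a2. Slc1a2 in males was no longer called once male shRNA replicate 2 was left out (edgeR adjusted p = 0.184). In females the call was lost without shRNA replicate 1 (edgeR adjusted p = 0.389), shRNA replicate 3 (0.165) or control replicate 2 (0.220). It was also lost with each sex fitted separately (edgeR adjusted p = 0.305) and with only the libraries compared (0.9998). The log2 change in those 5 fits lay between -1.33 and -1.03.

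Members were also read across the other 8 knockdowns. All knockdowns of 1 sex share the same 3 nontargeting libraries. Per sex, 3 of 112 gene-by-knockdown tests (2.68%) passed: Reln after Med13l shRNA in males and in females, and Cask after Setd5 shRNA in females. Over the same 16 comparisons 2.77% of all tests passed. Averaged over the sexes 2 of 56 (3.57%) passed, Reln after Med13l shRNA and Cask after Setd5 shRNA, beside 7.7% of all tests. With the replicate block 8 of 112 (7.14%) and 11 of 56 (19.6%) passed, beside 8.16% and 16.6% of all tests.

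**Figure D3:**
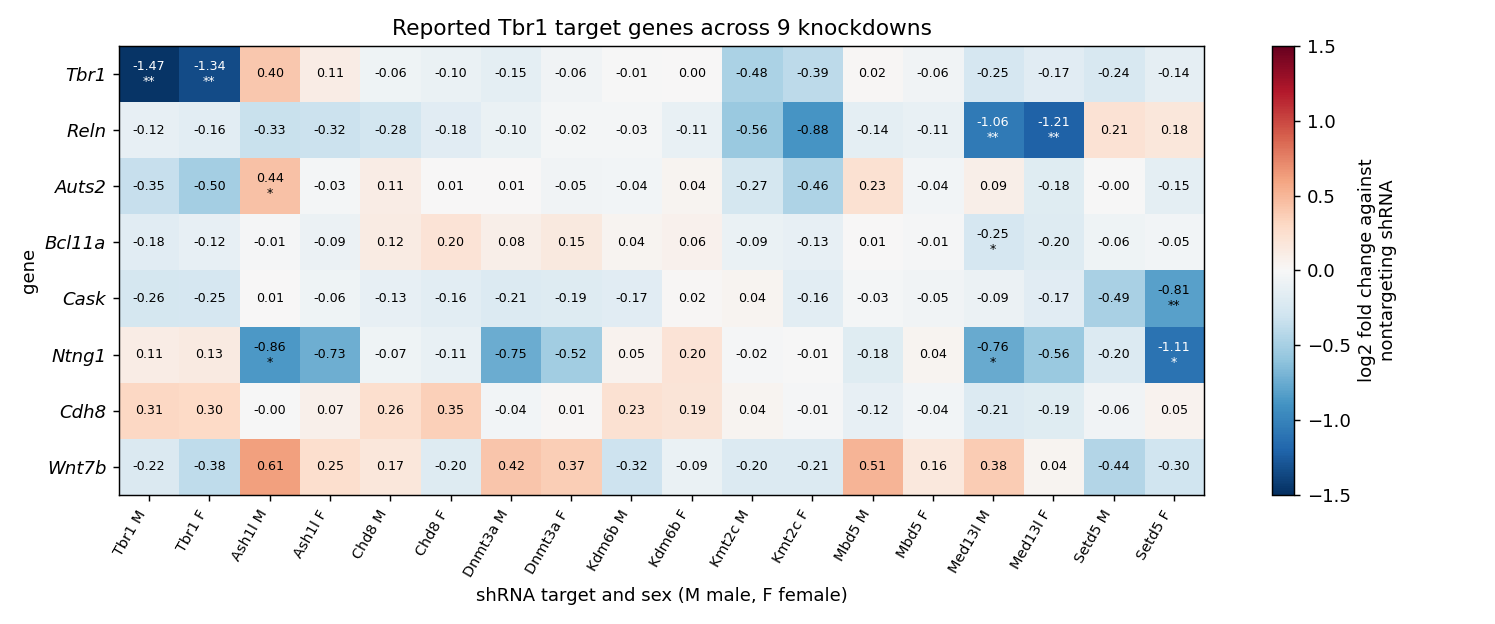
Log2 fold change of Tbr1 and the 7 members (rows) against nontargeting shRNA for each shRNA target and sex (columns; M male, F female), by colour and number. A pair of asterisks marks an edgeR adjusted p under 0.05 in the fit without a block and with it, 1 asterisk only with the replicate number as a block.

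The map of fold changes sets the Tbr1 columns beside the other knockdowns. In the average over the sexes Auts2 had its lowest value after Tbr1 shRNA, at -0.43. Bcl11a, Cask and Wnt7b had rank 2 from the lowest there among the 9 knockdowns, Reln rank 5, and Cdh8 and Ntng1 rank 8. These ranks are descriptions with no test.

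Reln fell after Med13l shRNA, which targets a subunit of the Mediator kinase module, and had its lowest group mean there, in females. Male libraries had 674, 486 and 433 CPM and female libraries 224, 620 and 352 CPM, against controls of 798 to 1364 CPM in males and 725 to 1054 CPM in females. All 6 libraries lay below all 6 controls, as did 5.22% of all genes. The log2 change was -1.06 in males (SE 0.300, edgeR adjusted p = 0.0183) and -1.21 in females (SE 0.301, adjusted p = 0.00522), where 8.06% and 10.2% of all genes passed. Averaged over the sexes it was -1.13 (SE 0.213, 95% interval -1.56 to -0.71, edgeR adjusted p = 5.998e-05), with 24.1% of all genes passing. The male call was lost without Med13l shRNA male replicate 2 (edgeR adjusted p = 0.0795) or 3 (0.122), or without nontargeting male replicate 1 (0.127) or 3 (0.0629). The female call did not hold without Med13l shRNA female replicate 1 (edgeR adjusted p = 0.120) or with only the libraries compared (0.267).

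Other genes moved beside Reln in the Med13l shRNA libraries. Of the reelin pathway, 2 of 10 fell in the average of both sexes, the receptor gene Lrp8 by 0.77 and the kinase gene Src by 0.41 on the log2 scale (edgeR adjusted p = 2.454e-06 and 5.71e-05). Over all genes 24.1% were called in either direction, and 1990 of 16145 were called lower. Of 11 GABAergic interneuron markers 4 fell, Gad1, Slc32a1, Lhx6 and Sp8, to be read beside that count of lower genes. Their summed level over all 11 was 1279 to 1767 CPM against 2110 to 2315 CPM in males, and 1147 to 1993 against 1849 to 2154 CPM in females. Of 7 Cajal-Retzius markers 2 fell, Trp73 and Ndnf, to be read beside the same count. The sum over all 7 was 164 to 179 against 187 to 200 CPM in males and 126 to 149 against 140 to 185 CPM in females. Interneurons and Cajal-Retzius cells are both known sources of reelin in cortex. Lower sums were not limited to these lists. The 5 general neuron markers, of which Syt1 alone was called and fell, summed to 3911 to 4224 against 5050 to 5111 CPM in males and 3558 to 4235 against 4756 to 5415 CPM in females. The 8 deep-layer markers, of which Bcl11b and Nfib fell, summed to 342.0 to 385 against 429 to 471 CPM in males and 312 to 403 against 432 to 511 CPM in females. The sum of the 7 excitatory markers went the other way. Its mean was 877 against 809 CPM in males and 1005 against 914 CPM in females, with overlapping ranges. No marker of these lists was at 0, and their part in the Reln decrease was not tested.

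Cask fell after Setd5 shRNA, against a gene for a SET domain chromatin protein. Female libraries had 99.97, 151 and 94.8 CPM, all below the 178 to 228 CPM of the female controls, as for 7.54% of all genes. The log2 change in females was -0.81 (SE 0.161, 95% interval -1.14 to -0.49, edgeR adjusted p = 0.00198), where 3.12% of all genes passed. In males the values were 112 and 122 CPM in replicates 2 and 3 and 228 CPM in male replicate 1, whose Setd5 level went against its label. With that library the male change was -0.49 (SE 0.160, edgeR adjusted p = 0.402, background 0.0557%), and the average over the sexes was -0.65 (SE 0.113, adjusted p = 0.000172, background 5.3%). Without both libraries that went against their labels the male change was -0.88 (SE 0.137, edgeR adjusted p = 4.411e-05) and passed, among 1.25% of all genes. The averaged change was then -0.85 (edgeR adjusted p = 2.565e-09), among 7.43% of all genes. Cask was at 146 CPM in male replicate 1 labelled Kdm6b shRNA, beside 217 and 214 CPM in the other Kdm6b shRNA males. With only the libraries compared the female and averaged calls did not hold (edgeR adjusted p = 0.760 and 0.138). Of the 11 Cask partners 0 passed after Setd5 shRNA, with a median log2 change of 0.01.

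**Figure D4:**
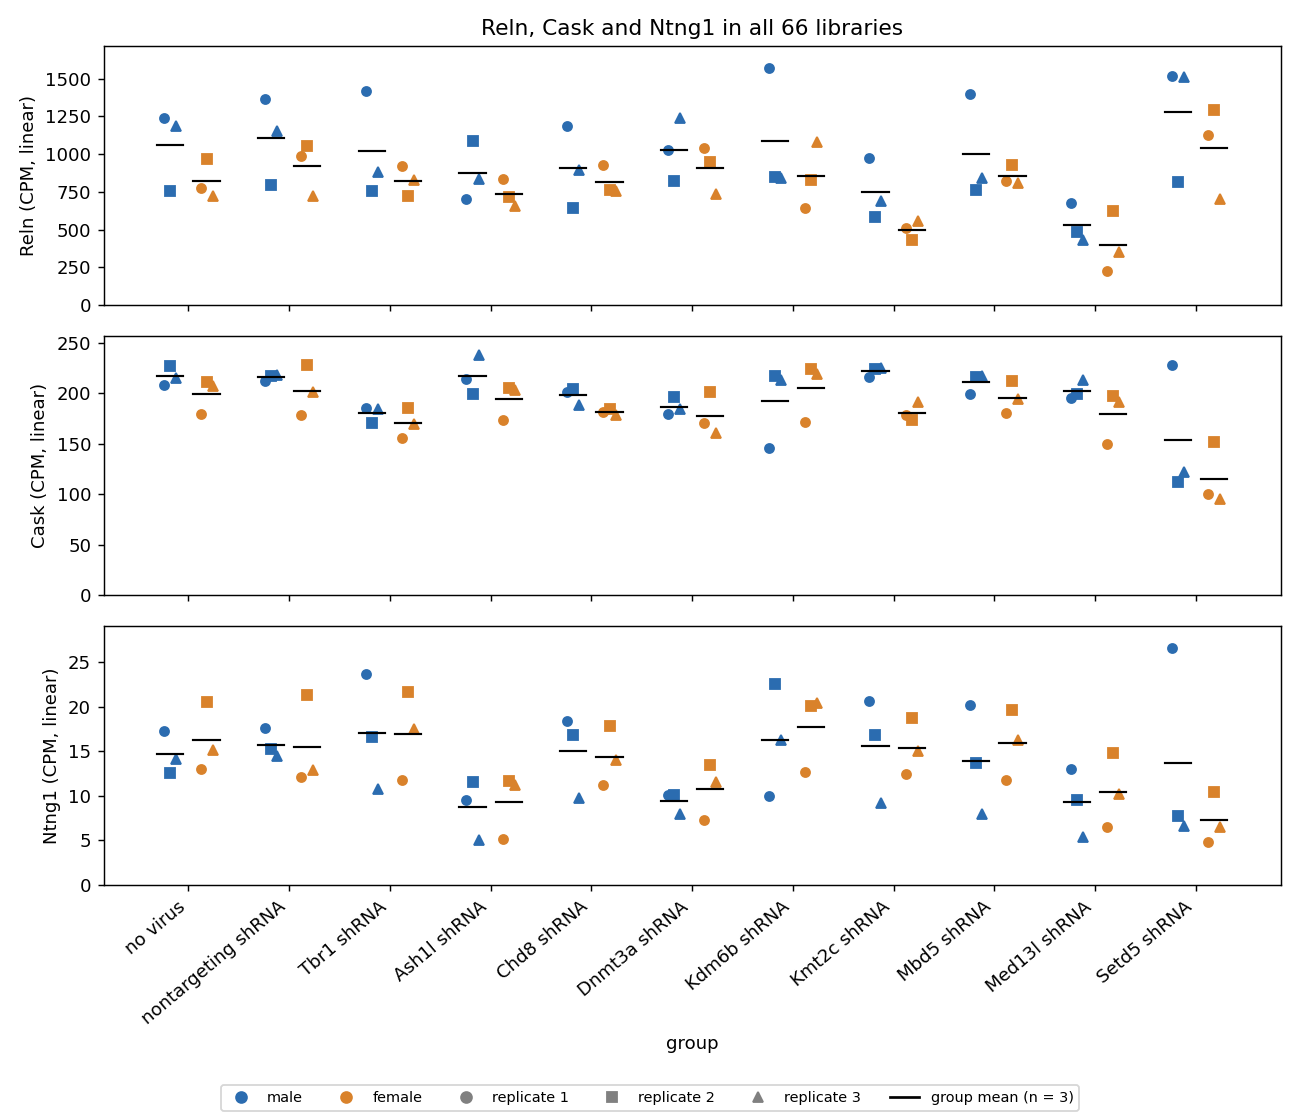
Reln, Cask and Ntng1 in all 66 libraries, in CPM on linear axes, by treatment; points are libraries (shape: replicate number, colour: sex) and lines are means of 3. Reln lies at 224 to 674 CPM after Med13l shRNA, below all controls, Cask lies at 94.8 to 151 CPM after Setd5 shRNA apart from male replicate 1 at 228 CPM, and Ntng1 ranges from 4.84 to 26.6 CPM.

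The plot of Reln, Cask and Ntng1 over all libraries also shows how Ntng1 varied. Ntng1 was below control in 13 of 18 sex-specific comparisons. After Setd5 shRNA the females had 4.84, 10.4 and 6.46 CPM, all below the controls of 12.1 to 21.3 CPM, as for 7.54% of all genes, a log2 difference of -1.11 (SE 0.424, 95% interval -1.96 to -0.26, edgeR adjusted p = 0.148) that did not pass. With the replicate block it was -1.12 (SE 0.273, edgeR adjusted p = 0.00456) and passed, among 13% of all genes. Of the males labelled Setd5 shRNA, replicate 1 had 26.6 CPM and the other 2 had 7.69 and 6.64 CPM. Averaged over the sexes the difference was -0.65 (edgeR adjusted p = 0.218), or -1.12 without the libraries that went against their labels (adjusted p = 0.00690). With the block it was -0.73 (edgeR adjusted p = 0.00484), among 16.2% of all genes. After Ash1l shRNA, against a histone H3 lysine methyltransferase gene, Ntng1 was at 9.57, 11.49 and 4.99 CPM in males and at 5.13, 11.6 and 11.2 CPM in females. All 6 lay below all 6 controls, as for 2.45% of all genes, and the averaged difference was -0.79 (SE 0.292, edgeR adjusted p = 0.103, background 6.16%). Without the libraries that went against their labels, neither of them in this contrast, it was -0.80 (edgeR adjusted p = 0.0487), among 6.63% of all genes. After Dnmt3a shRNA, against a DNA methyltransferase gene, the averaged difference was -0.63 (SE 0.292, edgeR adjusted p = 0.448, background 1.4%), and -0.64 with the block (adjusted p = 0.0229, among 6.97% of all genes).

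After Kmt2c shRNA, against a histone H3 lysine methyltransferase gene, Reln and Auts2 were both below control. Reln was at 976, 586 and 691 CPM in males and at 509, 431 and 560 CPM in females, lower in each of the 6 same-number pairs. The females did not overlap their controls, as for 4.74% of all genes. Its averaged difference was -0.72 (SE 0.211, edgeR adjusted p = 0.124, background 0.694%), and -0.71 with the block (SE 0.176, adjusted p = 0.0135), which called 2.97% of all genes. Auts2 was at 43.8, 29.9 and 47.3 CPM in males and at 34.5, 38.2 and 30.9 CPM in females, lower in 6 of 6 pairs. Its averaged difference was -0.36 (SE 0.175, edgeR adjusted p = 0.679), and -0.37 with the block (adjusted p = 0.0207). Tbr1 itself was at 41.4, 33.7 and 39.0 CPM in the Kmt2c shRNA males and at 35.3, 56.2 and 34.7 CPM in the females. Its averaged difference was -0.43 (SE 0.165, edgeR adjusted p = 0.394), and -0.44 with the block (adjusted p = 0.00367). The Kmt2c and Tbr1 shRNA comparisons share their control libraries, and in the latter Reln stood at -0.14 and Auts2 at -0.43.

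Tbr1 was highest after Ash1l shRNA in males, at 66.6, 65.5 and 78.0 CPM, and Auts2 had its highest group mean in the same libraries, at 53.8, 58.4 and 85.0 CPM. The male Ash1l difference was 0.40 for Tbr1 and 0.44 for Auts2 on the log2 scale, and neither passed without the block. With the block Auts2 was at 0.42 (edgeR adjusted p = 0.0429) and passed, among 8.27% of all genes. Replicate numbers did not pair the libraries in that comparison. Wnt7b was also high there, at 67.1, 84.7 and 96.3 CPM against 46.6 to 63.0 CPM in the controls, a log2 difference of 0.61 that did not pass. For Tbr1, Auts2 and Wnt7b all Ash1l shRNA males lay above all male controls, as for 12.7% of all genes.

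Cdh8 was at 0.30 in the average after Chd8 shRNA, against a chromatin remodeller gene (SE 0.155, edgeR adjusted p = 0.163, background 22.3%), as after Tbr1 shRNA. With the block this was 0.30 (SE 0.104, edgeR adjusted p = 0.0175) and passed, among 36.9% of all genes. Bcl11a stayed between -0.25 and 0.20 on the log2 scale over the 18 sex-specific comparisons, the narrowest range of the 7.

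The nontargeting shRNA itself was also set beside no virus, in a comparison that called no gene at all. Log2 differences of the members ran from -0.03 (Auts2) to 0.10 (Ntng1) in males. In females they ran from -0.17 (Bcl11a) to 0.17 (Reln). Against no virus, 0 of 7 passed in either sex, as did 0% of all genes, with 0 members at an unadjusted p under 0.05 in edgeR and 0 calls in DESeq2. Reln, for example, was at 1236, 755 and 1188 CPM in no virus males and at 773, 970 and 723 CPM in no virus females. Between male and female control cultures 0 of 7 members passed, beside 0.0434% of all genes, again with 0 at an unadjusted p under 0.05 and 0 in DESeq2. The widest sex difference among the nontargeting libraries was that of Wnt7b, -0.50 for male against female on the log2 scale.

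Levels were compared between genes only per kilobase of merged exons (GENCODE M21). In male and female nontargeting libraries Reln had a mean of 46.6 and 38.8 CPM per kilobase, Cask 23.6 and 22.2, and Wnt7b 11.04 and 15.7. Tbr1 had a mean of 9.65 and 10.1 CPM per kilobase, and Cdh8 had 7.62 and 7.26. Bcl11a followed at 5.84 and 5.81, Auts2 at 2.12 and 2.07 and Ntng1 at 1.91 and 1.87 CPM per kilobase. Tbr1 and Wnt7b, and Auts2 and Ntng1, overlapped in both sexes. In females Cask and Wnt7b, Tbr1 and Cdh8, and Cdh8 and Bcl11a overlapped too, so the order within those pairs is not set by these libraries. The authors' annotation is not given in the sources used here, and exons of Reln, Bcl11a, Cdh8 and Wnt7b overlap genes on the other strand by 246, 316, 23 and 324 bases. Whether strand was used in counting is not given either.

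The members differed in how far libraries of 1 group spread. The median coefficient of variation within a group was 8.33% for Bcl11a and 8.37% for Cask, 18.3% for Cdh8, 20.7% for Auts2, 23.6% for Wnt7b, 24.4% for Reln and 31.7% for Ntng1.

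Over the 22 group means, the genes most like each member were named by Pearson's r on log2 CPM among 9980 genes. They were Grin2a (r = 0.913) and Kat6a (0.91) for Reln, Nfix (0.889) and Smurf1 (0.856) for Auts2, and Map7 (0.856) and Slc44a1 (0.853) for Bcl11a. For Cask they were Cntnap4 (0.904) and Lmbr1 (0.9), and for Ntng1 Celf6 (0.928) and Cyb5r3 (0.904). For Cdh8 they were Cyp4x1 (0.804) and Etv1 (0.8), and for Wnt7b Fxyd6 (0.908) and Kctd4 (0.836). No member had another member, or Tbr1, in its leading pair. The points share sex and replicate numbers, and each r is the highest of many, so it is a description only.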

How the data were processed

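The authors deposited 1 table of read counts per gene for all libraries, made with STAR and featureCounts on mm10 per the submitters' processing notes; versions and annotation are not given in the sources used here. Values are whole-number counts, not normalized. Per the labels' protocols, RNA was made into libraries with a stranded polyadenylated RNA kit. Counts of 1 to 20 were odd in 26.72% of cases, against 49.07% at 1000 or more. Control columns, named for a luciferase hairpin, were matched to the nontargeting group. Of the table's columns, 6 matched no sample and were not used. Rows without a symbol (18483 of 48716, 0.69% to 1.415% of counts) were left out, and 149 rows repeating a symbol were summed.

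Counts were tested in R 4.3.3 with edgeR 4.0.16: TMM scaling, filterByExpr (16145 genes), 1 mean per group over 66 libraries, robust quasi-likelihood fit, contrasts against nontargeting shRNA of the same sex, Benjamini-Hochberg adjustment over all genes at 0.05. CPM use TMM-scaled library sizes. The fit was tested on simulated data. DESeq2 1.42.0, other scalings, filters, controls, a replicate block and leaving out libraries were alternatives. Replicate numbers, from the titles, paired the libraries (every correlation of same-number deviations above 0.1) in 14 of 18 comparisons, Tbr1 shRNA among them (0.176 to 0.525), not after Kdm6b shRNA in either sex or Ash1l or Med13l shRNA in males. Members and gene lists were chosen with earlier results of these data known. The rule for names took all 7 members, Tbr1, list genes called after Tbr1 shRNA and the 2 genes most similar to each member (mean log2 CPM of at least 3); other list genes named here were chosen after their values were seen, as was the block on the lists. Some list genes are not reported here.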

Additional observations from a re-analysis of the deposited data

How the results depend on the processing

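After Tbr1 shRNA the count of members called was 0 per sex under every alternative run, and 0 in the average except with the replicate block, where it was 1 (Auts2). With the replicate block, calls over the other 8 knockdowns rose from 3 to 8 of 112 per sex and from 2 to 11 of 56 averaged, beside 8.16% and 16.6% of all tests with the block. Where the numbers did not pair the libraries, the block added, at edgeR adjusted p, Auts2 (0.0429) and Ntng1 (0.0193) after Ash1l shRNA and Bcl11a (0.0478) and Ntng1 (0.0147) after Med13l shRNA in males. In the averages of those knockdowns it added Ntng1 (0.000897) and Wnt7b (0.0237), and Bcl11a (0.00582) and Ntng1 (0.00151). The average over the 8 gave 1 call with only the libraries compared and 4 without the 2 libraries that went against their labels. Leaving out 1 library at a time gave 0 to 0 for the Tbr1, sex and virus counts, 2 to 4 per sex and 2 to 4 averaged, the 4 without Med13l shRNA female replicate 2 (Bcl11a and Ntng1 added).

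With no virus libraries as control, Reln after Tbr1 shRNA in females was at 0.0033. Leaving out 1 library, Reln after Tbr1 shRNA in males ran from -0.43 to 0.0646. Ntng1 after Tbr1 shRNA ran from -0.20 to 0.35 in males, -0.0922 to 0.43 in females and -0.0364 to 0.27 averaged, and after Setd5 shRNA in males from -1.13 to 0.13. The cause was not tested. Of single-gene values under the other alternatives, 439 kept direction and side of the threshold, 7 lost a call, 19 gained a call and 1 changed direction. For left-out fits these counts were 383, 13, 4 and 8. Values not called in either fit count as kept, so the kept counts do not measure how well calls held. The block nested in sex was not run for male against female. The smallest count of any member was 86, and intervals rest on 3 libraries per group.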

Other observations

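Libraries with the same replicate number within a sex deviated together for several members, over all 11 treatments. For Auts2 the mean log2 deviation from the group mean was 0.30 in male replicate 3 and -0.25 in male replicate 2, and -0.29 in female replicate 3. For Reln it was 0.32 in male replicate 1 and -0.30 in male replicate 2. Ntng1 deviated by 0.36 in male replicate 1 and -0.45 in male replicate 3, and by -0.45 and 0.40 in female replicates 1 and 2. Wnt7b deviated by -0.38 in female replicate 2. Cask in males deviated by 0.001, -0.014 and 0.013 in replicates 1, 2 and 3.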
